A study of Rattus norvegicus with 17 samples.

Results

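The pigment genes followed here are 9 genes that melanocytes, the pigment cells of skin, use to make melanin: Tyr, Tyrp1, Dct, Pmel, Mlana, Slc45a2, Oca2, Mc1r and Mitf. They were chosen by name, from the sequence name that the array files give each probe, a rule that uses no measured value. Probes were matched for 5 of the 9 genes, with 1 probe each for Tyr, Mlana and Slc45a2, 2 for Tyrp1 and 3 for Mitf. These are 8 of the 30367 probes on the array, and all 8 passed the filter on dim probes. Dct, Pmel, Oca2 and Mc1r had no matched probe and their expression was not analysed here.

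The skin came from male CD hairless rats that were 2 to 3 months old at the start. Exposed rats received 94 GHz millimetre waves over 5.5 months, in sessions of 3 h on 3 days of each week, and the sham rats were sham exposed. Nothing else separates the groups in the labels, and no genotype or other agent is named. Skin explants were taken at the end, and RNA from each was read on 1-colour Agilent arrays, with 9 exposed and 8 sham arrays. The design, however, counts 6 animals exposed and 8 sham exposed, fewer than the exposed arrays. Where 1 animal gave several arrays, p-values are too small, and they measure the spread between arrays.

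Melanin is built in melanosomes, organelles of the melanocyte that are handed on to keratinocytes of the epidermis and hair. Tyr encodes tyrosinase, the rate-limiting enzyme, and Tyrp1 and Dct encode related enzymes of eumelanin synthesis. Pmel forms the fibrils on which melanin is laid down, Mlana acts in Pmel maturation, and Slc45a2 and Oca2 are membrane transport proteins that set the conditions inside the organelle. Mc1r is the receptor for melanocyte-stimulating hormone, and Mitf is the transcription factor that switches on the melanin genes by binding the M-box of their promoters. CD rats are an albino stock, in which melanocytes are present but tyrosinase makes no melanin; the labels do not give the coat colour.

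The letters that Mitf is known to read can be seen in the promoters of the enzyme genes, which are shown because Tyr and Tyrp1 varied together over the arrays. RefSeq promoters of build GRCr8 were matched for 8 of the 9 genes, all but Slc45a2. The 250 bases before each start were searched on both strands. The motifs were CATGTG, the core of the M-box; AGTCATGTGCT, the longest run around that core that Tyr and Tyrp1 share, which matches the M-box; and the related E-box CACGTG. The 4 promoters with the core follow, 5′ to 3′ on the gene's strand, with the core in capitals.

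Tyr (chr1:150622858-150623107, minus strand): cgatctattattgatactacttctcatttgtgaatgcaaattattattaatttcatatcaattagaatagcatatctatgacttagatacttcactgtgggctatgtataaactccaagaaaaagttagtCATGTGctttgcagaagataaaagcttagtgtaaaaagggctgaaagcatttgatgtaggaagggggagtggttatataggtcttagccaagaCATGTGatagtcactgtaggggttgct

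Tyrp1 (chr5:100326875-100327124, plus strand): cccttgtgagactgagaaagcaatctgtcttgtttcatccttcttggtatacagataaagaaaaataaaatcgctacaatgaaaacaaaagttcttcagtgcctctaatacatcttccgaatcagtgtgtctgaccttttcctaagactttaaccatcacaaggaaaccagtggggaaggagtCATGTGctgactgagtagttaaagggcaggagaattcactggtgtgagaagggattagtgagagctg

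Dct (chr15:101508030-101508279, minus strand): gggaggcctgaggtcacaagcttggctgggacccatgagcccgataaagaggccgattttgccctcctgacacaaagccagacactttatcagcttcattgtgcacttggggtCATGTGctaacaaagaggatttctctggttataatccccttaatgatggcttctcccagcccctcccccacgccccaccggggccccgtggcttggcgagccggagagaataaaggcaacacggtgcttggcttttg

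Mlana (chr1:236882825-236883074, plus strand): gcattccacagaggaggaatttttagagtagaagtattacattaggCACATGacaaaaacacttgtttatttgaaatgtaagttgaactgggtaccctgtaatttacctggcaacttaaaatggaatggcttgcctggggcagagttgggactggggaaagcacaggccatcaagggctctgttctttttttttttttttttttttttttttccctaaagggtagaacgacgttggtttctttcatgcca

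The longer motif, which Tyr and Tyrp1 hold by its choice, stood in Tyr with the first base of its core 120 bases before the start, and in Tyrp1 with that base 67 bases before it. It occurred in 10 of all 33469 RefSeq promoters of the same length, or 0.0299%. The core was found in 4 of the 8 pigment gene promoters, against 12.1% of all promoters. In Dct it began 137 bases before the start, within GGTCATGTGCT. Tyr had a second copy 27 bases before the start, and Mlana had it on the other strand, 204 bases before the start. CACGTG was in 0 of the 8, against 5.59% of all. The promoters of Mitf, Pmel, Oca2 and Mc1r held none of the 3 motifs in this window, and Mitf has further start sites that the table does not hold. Of the other genes with the longer motif, Igsf6, Fubp3, C1qb and Mbnl2 were measured, and their correlation with Tyrp1 over the arrays ran from -0.22 to 0.39.

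All values below are log2 of the processed signal minus log2 of the array's 75th percentile, so that 0 is that percentile. The 75th percentile ran from 1077 to 1703 units of fluorescence, and 20709 probes, well above background on at least 8 of the 17 arrays, were tested. All 5 measured basal keratinocyte markers were well above background on every array, as were 4 of the 5 pigment genes. The explants differed in tissue content: the score of 12 hair matrix and inner root sheath markers, the mean of their centred log2 values, ran from -3.16 to 2.28 in exposed and from -6.01 to 2.44 in sham skin. Sham replicate 5 had the lowest hair score. The skeletal muscle score ran from -3.1 to 5.36 in exposed and from -3.12 to 4.77 in sham skin.

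Tyr was at the edge of detection. Its probe (A_64_P056761) was well above background on 10 of 17 arrays, 6 of 9 exposed and 4 of 8 sham. In exposed skin its log2 value was -8.29 at the lowest (replicate 3), -5.78 at the median and -4.32 at the highest (replicate 1). In sham skin it was -8.01 at the lowest (replicate 8), -5.94 at the median and -4.27 at the highest (replicate 7). The ranges overlapped almost wholly, and both groups held arrays with a readable signal and arrays without one. In signal units the span over all arrays was from 5.02 to 82.3. The values of the 7 arrays below the detection criterion have no firm order, and over the other 10 the range was 3.1-fold, from -5.91 to -4.27. In whole skin, fewer melanocytes and less RNA per melanocyte cannot be told apart.

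Tyrp1, the enzyme next to tyrosinase in the melanosome membrane, was read by a probe (A_43_P22979) well above background on all 17 arrays. Its log2 value in exposed skin was -5.97 at the lowest (replicate 3), -3.47 at the median and -2.49 at the highest (replicate 1). In sham skin it was -5.66 at the lowest (replicate 8), -4.08 at the median and -2.81 at the highest (replicate 5). Both of these lowest arrays were below the detection criterion for Tyr, and the groups overlapped over nearly their whole range. From the lowest to the highest array Tyrp1 varied 11.2-fold. The second probe (A_64_P140025), well above background on 15 arrays, varied 12.1-fold, had its lowest and highest arrays in the same places, and was below the criterion on the 2 lowest. The 2 Tyrp1 probes correlated at r = 0.98 (permutation p = 1e-05, the smallest that 100000 resamples give; Spearman rho = 0.98, p = 1e-05).

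**Figure D1:**
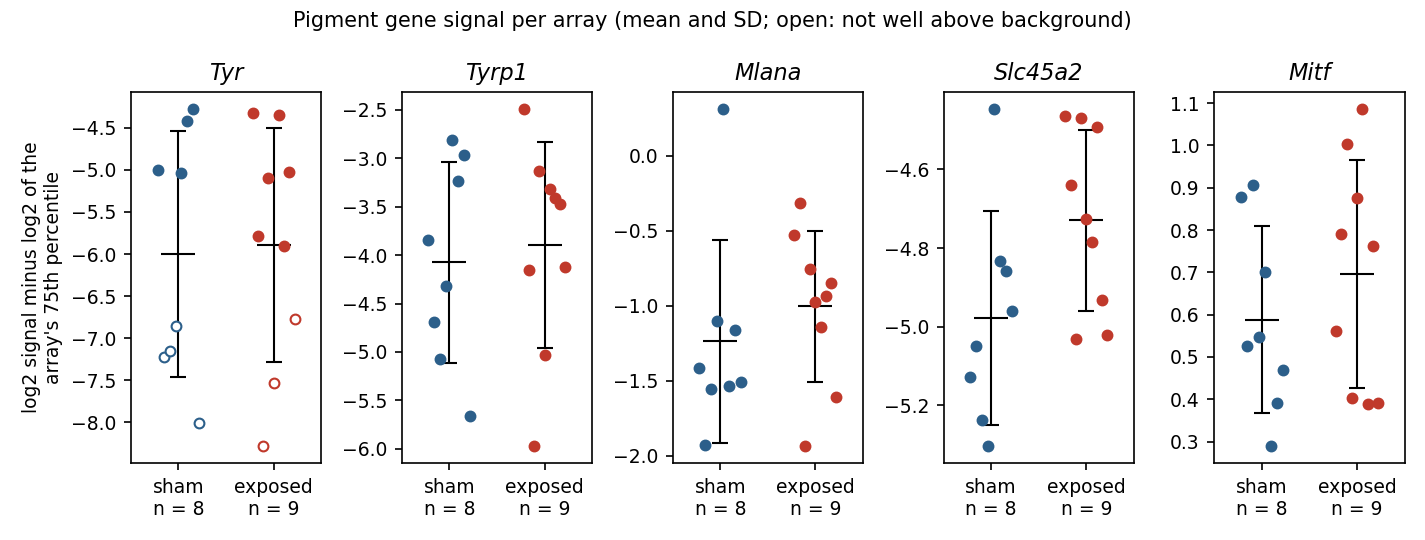
Log2 signal relative to the array's 75th percentile, on the vertical axis of each panel, for the 5 measured pigment genes in 8 sham and 9 exposed arrays, with 1 point per array and bars for the mean and SD. Open points are arrays on which the probe was not well above background, which occurred for Tyr alone among the 5 main probes, and the groups overlap in every panel.

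Mlana, a melanosome protein, showed a smaller range. Its probe (A_64_P043536) read -1.94 at the lowest (replicate 3), -0.93 at the median and -0.31 at the highest (replicate 2) in exposed skin. In sham skin it read -1.93 at the lowest (replicate 2), -1.46 at the median and 0.31 at the highest (replicate 5). Sham replicate 5 stood apart, with the next sham array at -1.10. With that array the range over all 17 was 4.76-fold.

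Slc45a2, a melanosome transporter, was read by a single spot per array (probe A_64_P087633) at signals of 33.5 to 74.4 units. In exposed skin its log2 value was -5.03 at the lowest (replicate 3), -4.73 at the median and -4.46 at the highest (replicate 1). In sham skin it was -5.30 at the lowest (replicate 4), -5.00 at the median and -4.45 at the highest (replicate 5). The highest sham array exceeded every exposed array, and the other 7 sham arrays lay at or below -4.83. The whole range was 1.81-fold.

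Mitf, the transcription factor, varied less. Its main probe (A_64_P056618) ran from 0.39 (replicate 7) through a median of 0.76 to 1.09 (replicate 6) in exposed skin. In sham skin it ran from 0.29 (replicate 6) through a median of 0.54 to 0.91 (replicate 3). The range over the 17 arrays was 1.74-fold, and the sham mean was exceeded by 5 of 9 exposed arrays. The second probe (A_64_P056615) correlated with the main one at r = 0.90 (permutation p = 1e-05; rho = 0.91, p = 1e-05), whereas the third (A_64_P056613) did so at r = 0.38 (permutation p = 0.134; rho = 0.50, p = 0.0393). The third probe gave signals from 12.8 to 96.4 units. Before outlier spots were left out, its 2 spots on 1 array differed by up to 2.41 on the log2 scale. Mitf is also known to be active in mast cells and other cells of skin, from other start sites, and these probes do not separate its isoforms.

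The wide range of the enzyme genes was present within each group. The SD within groups was 1.42 for Tyr (log2), 1.05 for Tyrp1 and 0.59 for Mlana, against a median of 0.19 over all tested probes. The Tyr value includes 7 arrays below the detection criterion and was not ranked. The Tyrp1 value exceeded that of 98.0% of tested probes and Mlana that of 94.1%. Slc45a2 and Mitf, both at 0.25, exceeded 64.8% and 64.4%. Duplicate spots of the same probe on 1 array had a median gap of 0.27 for Tyr, 0.16 for Tyrp1, 0.082 for Mlana and 0.061 for the main Mitf probe. The largest gaps on an array were 1.32, 0.76, 0.80 and 0.14. For Mlana this largest gap exceeds the SD of 0.59 within groups, whereas its median gap of 0.082 lies well below it. All gaps were taken before outlier spots were left out.

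For none of the 5 pigment genes did the comparison of exposed with sham skin pass the test. In limma with Benjamini-Hochberg adjustment, 0 of the 8 probes and 0 of all 20709 tested probes (0%) passed an adjusted p of 0.05. At an unadjusted p under 0.05 the main probe of 1 of the 5 genes, Slc45a2, passed, against 943 tested probes or 4.55%. In the higher direction, where Slc45a2 lies, these were 123 probes or 0.594%. Exact permutation over the arrays gave 0 of 5 genes under 0.05. The main probes of all 5 genes were higher in exposed skin, by 0.10 to 0.25 with a median of 0.17, whereas 41.0% of the 11166 named genes were above 0 and their median was -0.018. The other pigmentation genes that followed Tyr and Tyrp1 across arrays (below) were mixed in direction. Sox10 differed by -0.20, Trpm1 by -0.30 and Gpr143 by 0.36, each with an adjusted p of 0.983 in limma. Skeletal muscle markers also lay higher, 8 of 8 with a median difference of 1.38 and 0 past the adjusted threshold, and their part in the pigment gene values was not tested.

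Tyr was 0.10 higher in exposed skin, with a 95% interval of -1.27 to 1.47 (adjusted p = 0.994 in limma; two-sided exact permutation p = 0.887). This interval admits changes from 0.415-fold to 2.77-fold, so the arrays could not resolve changes within that span. Tyrp1 was 0.17 higher, with an interval of -0.84 to 1.19 (adjusted p = 0.988 in limma; exact permutation p = 0.735), and its second probe was 0.11 higher. Exposed arrays lay above the sham mean in 6 of 9 cases for Tyr and in 5 of 9 for Tyrp1.

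Mlana was 0.23 higher in exposed skin, between -0.34 and 0.80 (adjusted p = 0.983 in limma; exact permutation p = 0.440), with 7 of 9 exposed arrays above the sham mean. Mast cell markers, with which Mlana correlated across arrays, lay in the same direction. In exposed skin 8 of 8 were higher, against 41.0% of all named genes, with a median difference of 0.23 and 0 past the adjusted threshold. Their score ran from -1.22 to 0.81 in exposed and from -1.49 to 1.46 in sham skin, and their part in the Mlana value was not tested.

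Slc45a2 was 0.25 higher, with 7 of 9 exposed arrays above the sham mean and an interval of 0.000586 to 0.50. Its unadjusted limma p was 0.0495, its adjusted p 0.983, and the exact permutation p was 0.0609. With normexp background correction the difference fell to 0.00870. Hair markers lay in the same direction, with 12 of 12 higher in exposed skin, against 41.0% of all named genes. Their median difference was 0.65 with 0 past the adjusted threshold, but across arrays Slc45a2 ran against their score. Their part in the Slc45a2 value was not tested.

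Mitf was 0.11 higher on its main probe, between -0.14 and 0.35 (adjusted p = 0.983 in limma; exact permutation p = 0.382). The second probe was 0.075 higher and the third was -0.095, so that the direction was not shared by the 3 probes. For the main probe the interval corresponds to 0.908-fold to 1.28-fold.

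**Figure D2:**
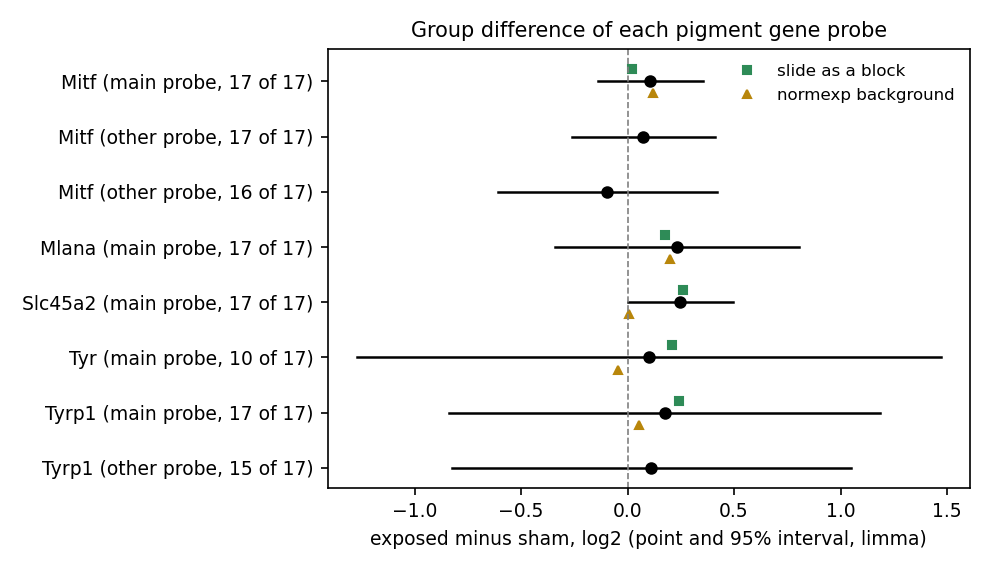
Exposed minus sham difference on the log2 axis for the 8 pigment gene probes, with the limma estimate as a point and its 95% interval as a line, and the number of 17 arrays well above background beside each name. For the 5 main probes, squares give the estimate with slide as a block and triangles that with normexp background correction, and the intervals of Tyr and Tyrp1 are the widest.

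The arrays lay on 4 slides, each of which held both groups. Between slides 0 of the 8 pigment gene probes passed an adjusted p of 0.05 in limma, nor did any of the 20709 tested probes (0%), and 1844 or 8.90% had an unadjusted p under 0.05. The share of variance lying between slides ran from 5.97% for Slc45a2 to 36.9% for the main Mitf probe. Their unadjusted p-values between slides in limma were 0.821 and 0.0824, and some share lies between slides even without a slide effect. The direction of the group difference was not shared by the slides. Exposed minus sham, Tyr was -0.014 within slide 1, 1.28 within slide 2 and -1.20 within slide 4. Tyrp1 was 0.063, 0.97 and -0.17 on these slides, Mlana 0.74, 0.38 and -0.21, Slc45a2 0.38, 0.65 and -0.14, and Mitf 0.083, -0.038 and 0.00631. None of these passed the adjusted threshold in limma, and slide 3 holds 1 array of each group. With slide as a block the differences were 0.21 for Tyr, 0.24 for Tyrp1, 0.17 for Mlana, 0.26 for Slc45a2 and 0.023 for Mitf, none past the adjusted threshold.

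The 2 enzyme genes rose and fell together from explant to explant. Over 17 arrays Tyr and Tyrp1 correlated at r = 0.94 (permutation p = 1e-05, adjusted p = 0.0001 over the 10 pairs of pigment genes; rho = 0.88, p = 2e-05, adjusted p = 0.0002). Without the 2 arrays farthest from the median of Tyr r was 0.90. It was 0.94 within the exposed and 0.94 within the sham arrays. By slide it was 0.96 on slide 1, 0.91 on slide 2 and 0.96 on slide 4, and slide 3 holds 2 arrays. The 6 arrays with the lowest Tyrp1 were all arrays on which Tyr was not well above background. Over the 10 arrays on which Tyr was readable the relation was looser, at r = 0.61 (permutation p = 0.0622) and rho = 0.48, so that the high value over all arrays rests in part on arrays where Tyr was near the floor.

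Over all 17 arrays Mlana and Slc45a2 were related less strongly than Tyr and Tyrp1, and neither was the gene closest to the other. Among 11165 other named genes, Slc45a2 ranked number 125 by r with Mlana, and Mlana ranked number 3 by r with Slc45a2. They correlated at r = 0.72 (adjusted permutation p = 0.0043; rho = 0.75), 0.76 within exposed and 0.70 within sham arrays. Tyrp1 correlated with Mlana at r = 0.61 (adjusted permutation p = 0.0304; rho = 0.59) and with Slc45a2 at r = 0.59 (adjusted permutation p = 0.0320; rho = 0.67). Without the 2 arrays farthest from the median of Tyrp1, these were 0.50 and 0.63. Both calls were lost without exposed replicate 1, exposed replicate 3, sham replicate 3 or sham replicate 5, with adjusted permutation p-values of 0.0529 to 0.0903, and the call with Slc45a2 also without exposed replicate 4 (adjusted permutation p = 0.0580). Tyr with Mlana (r = 0.50, adjusted permutation p = 0.0831) and with Slc45a2 (r = 0.47, adjusted permutation p = 0.0919) did not pass. In all, 4 of the 10 pairs passed.

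Mitf, which drives these genes in melanocytes, showed no relation to them that passed the threshold in whole skin. Its main probe correlated with Tyr at r = -0.17, Tyrp1 at -0.34, Mlana at 0.015 and Slc45a2 at -0.20, with adjusted permutation p-values from 0.262 to 0.954. Mitf ranged 1.74-fold over the arrays on which Tyrp1 ranged 11.2-fold.

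**Figure D3:**
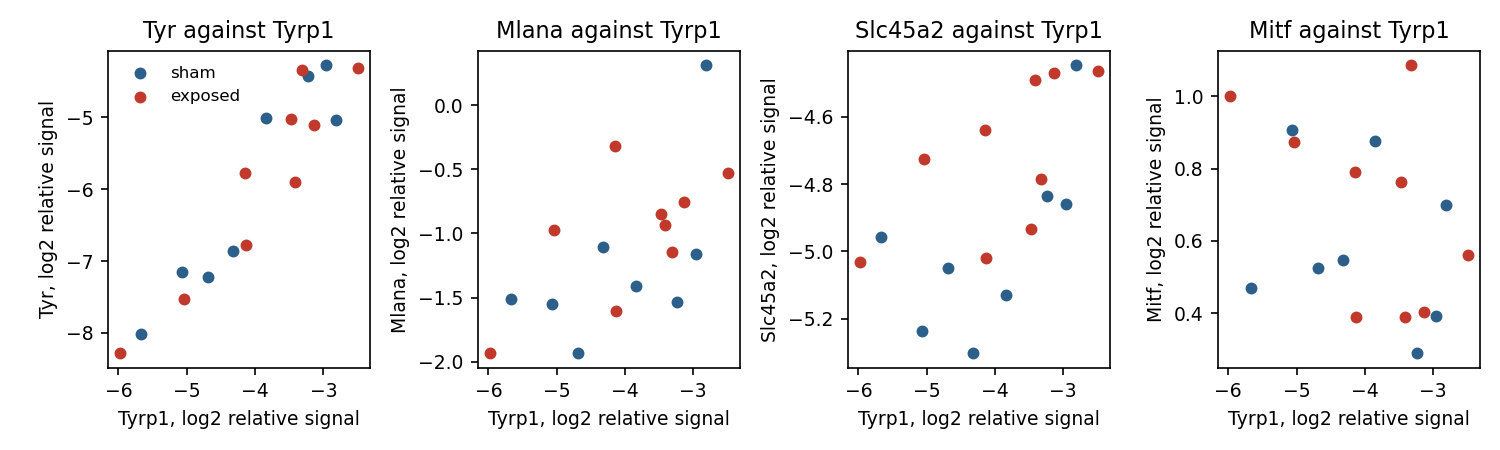
Log2 relative signal of Tyr, Mlana, Slc45a2 and Mitf on the vertical axes against that of Tyrp1 on the horizontal axes, with 1 point per array in 8 sham and 9 exposed arrays. Over all 17 arrays Tyr follows Tyrp1 closely (r = 0.94), Mlana and Slc45a2 do so loosely (r = 0.61 and 0.59), and Mitf does not (r = -0.34). Over the 10 arrays with Tyr well above background, Tyr and Tyrp1 have r = 0.61, and the other 7 Tyr points are near the floor.

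The genes whose levels were most like those of the enzyme genes were ranked among 11165 other named genes by Pearson r over the 17 arrays. All r values and ranks with Tyr, here and below, include the 7 arrays below its detection criterion. Apart from that with Tyrp1, they were not computed over the other 10 alone. For Tyr the closest gene was Tyrp1, followed by Npy, neuropeptide Y, at 0.90, Asf1a, a histone chaperone, at 0.77 and Sox10 at 0.77. For Tyrp1 they were Tyr, then Npy at 0.92, Sox10 at 0.78 and Xdh, xanthine dehydrogenase, at 0.77. Sox10 is the neural crest transcription factor that acts above Mitf in melanocytes and also marks Schwann cells. In exposed skin its log2 value had a median of -3.24, from -3.90 to -2.97, and in sham skin a median of -3.21, from -3.63 to -2.68. Npy had a median of -1.20 in exposed skin, from -2.28 to -0.34, and of -1.35 in sham skin, from -2.94 to -0.24. Neither separated the groups, with adjusted p = 0.983 for Sox10 and 0.986 for Npy in limma.

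Further melanocyte genes lay near the top of these rankings, and 2 of them are named after their values were seen. Gpr143, the melanosome receptor mutated in ocular albinism, ranked number 6 for Tyr at r = 0.70 and number 18 for Tyrp1 at 0.65, with its probe well above background on 14 arrays. Without exposed replicate 3, the array lowest in Tyrp1, these values were 0.89 and 0.89. Over all alternatives they fell as low as 0.63 (rank 16) for Tyr and 0.55 (rank 138) for Tyrp1. Trpm1, the melastatin channel, ranked number 9 for Tyr at 0.65 and number 10 for Tyrp1 at 0.69, on 12 arrays, and fell as low as rank 50 and rank 57 over the alternatives. The score of the 10 Schwann cell and nerve markers as a whole correlated with Tyr at r = 0.33 (adjusted permutation p = 0.369) and with Tyrp1 at 0.30 (adjusted permutation p = 0.373), and its part in these values was not tested.

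Most genes of the wider pathway did not follow the enzymes. Of 50 measured genes of the other pigmentation lists, 3 had r of at least 0.5 with Tyr and 3 with Tyrp1, against 0.914% and 1.24% of all named genes. These 3 were Sox10, Gpr143 and Trpm1 in both cases. Kit, the receptor that melanocytes and mast cells share, reached 0.30 and 0.36. Pax3 reached 0.022 and 0.19, but its 2 probes correlated at -0.20 with each other, so that its value is uncertain.

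**Figure D4:**
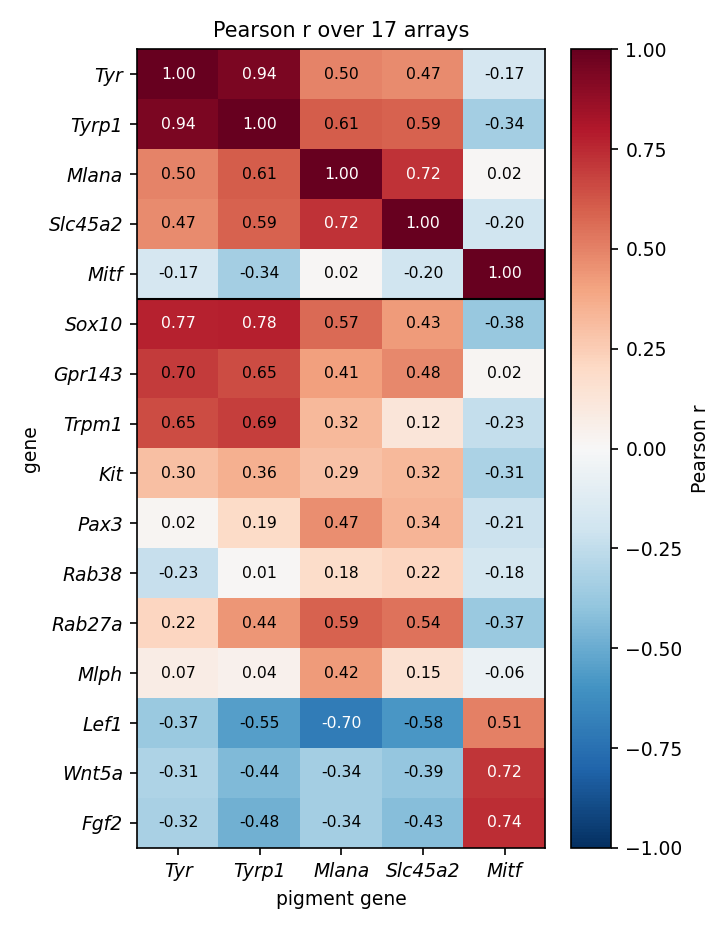
Pearson r over 17 arrays between the 5 measured pigment genes (columns) and, in rows, those same genes above the line and 11 genes of the other pigmentation lists below it, chosen after their values were seen. Tyr and Tyrp1 share high values with Sox10, Gpr143 and Trpm1, and Mitf has its high values with Fgf2 (0.74) and Wnt5a (0.72).

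Mlana kept other company. Its nearest genes were C1qtnf3, a secreted C1q-related protein, at r = 0.88, C1r, a complement protease, at 0.88 and Alox5, the leukotriene-forming enzyme of leukocytes, at 0.87. Of 8 mast cell markers, 7 had r of at least 0.5 with Mlana, against 8.11% of all named genes, with Fcer1a highest at 0.78. Of 8 macrophage markers 5 did, with Aif1 highest at 0.74. All 12 hair markers had r of at most -0.5 with Mlana, against 6.59% of all named genes. Sham replicate 5, which had the highest Mlana and the lowest hair score, carried part of this. Without that array 7 of 8 mast cell markers, 1 of 8 macrophage markers and 1 of 12 hair markers were past those limits, against 2.80% of all genes in the positive and 2.96% in the negative direction. With Tyr, 0 of 8 mast cell markers reached 0.5, against 0.914% of all named genes, with Hdc highest at 0.49. With Tyrp1 1 of 8 did, Hdc at 0.52, against 1.24%. The median r of the 8 mast cell markers was 0.70 with Mlana, 0.47 with Slc45a2, 0.36 with Tyrp1, 0.20 with Tyr and -0.0034 with Mitf. For the 8 macrophage markers it was 0.55 with Mlana, 0.41 with Slc45a2, 0.14 with Tyrp1, 0.16 with Tyr and 0.14 with Mitf.

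Slc45a2 was closest to Tmod3, which caps actin filaments, at r = 0.75, and to C2, a complement protease, at 0.72, with Mlana and then Xdh (0.72) after them. Of 12 hair markers 11 had r of at most -0.5 with it, against 3.37% of all named genes, and 6 of 12 without sham replicate 5, against 2.29%. With normexp correction the values for Tmod3, C2 and Xdh fell to 0.58, 0.45 and 0.56.

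Mitf was closest to Nkd2, an inhibitor of Wnt signalling, at r = 0.89, Gchfr, the regulator of GTP cyclohydrolase, at 0.86 and Comp, a matrix protein, at 0.86. Of the 50 other pigmentation genes 5 had r of at least 0.5 with Mitf, against 5.30% of all named genes, among them Fgf2 and Wnt5a, both signals from surrounding cells. Of 12 hair markers 2 had r of at least 0.5 with Mitf over 17 arrays, and 11 of 12 without sham replicate 5, when 6.84% of all named genes did.

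Scores of the 4 tissue marker lists were tested against the 5 genes, and 3 of 20 correlations passed. Mitf ran against the basal keratinocyte score at r = -0.76 (adjusted permutation p = 0.0044; rho = -0.79, adjusted p = 0.0038). It was -0.67 without the 2 arrays farthest from the median of that score, -0.85 within exposed arrays and -0.60 within sham arrays, and -0.41, -0.93 and -0.75 on slides 1, 2 and 4. Mlana ran against the hair score at r = -0.67 (adjusted permutation p = 0.0423; rho = -0.59, adjusted p = 0.104), and this was -0.32 without the 2 arrays farthest from the median of the score, sham replicate 5 and exposed replicate 4, so the relation rests on them. It was -0.51 within exposed and -0.86 within sham arrays, and -0.67, -0.85 and -0.056 on slides 1, 2 and 4. The call was lost when any of exposed replicates 3, 4, 7 and 9 and sham replicates 1, 3, 5, 7 and 8 was left out, with adjusted permutation p-values up to 0.416. Slc45a2 ran against the hair score at r = -0.61 (adjusted permutation p = 0.0446; rho = -0.52, adjusted p = 0.147), or -0.39 without those 2 arrays. It was -0.72 within exposed and -0.84 within sham arrays, -0.50, -0.62 and -0.86 on slides 1, 2 and 4, and -0.81 after group and slide were removed (adjusted permutation p = 0.0016). The call was lost when any of exposed replicates 3, 4, 7, 8 and 9 and sham replicates 1, 2, 3, 5, 7 and 8 was left out, with adjusted permutation p-values up to 0.228. Tyr passed with none of the 4 scores, and Tyrp1, at r = -0.53 with the hair score (adjusted permutation p = 0.127), did not either. Marker by marker, Tyrp1 had r from -0.64 to -0.42 with the 12 hair markers, with a median of -0.50. Tyr had r from -0.53 to -0.25 with them, with a median of -0.32. Of 5 basal keratinocyte markers 2 had r of at least 0.5 with Tyrp1, against 1.24% of all named genes. Krt14 was highest of the 5 at 0.63 and Tp63 lowest at -0.15.

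**Figure D5:**
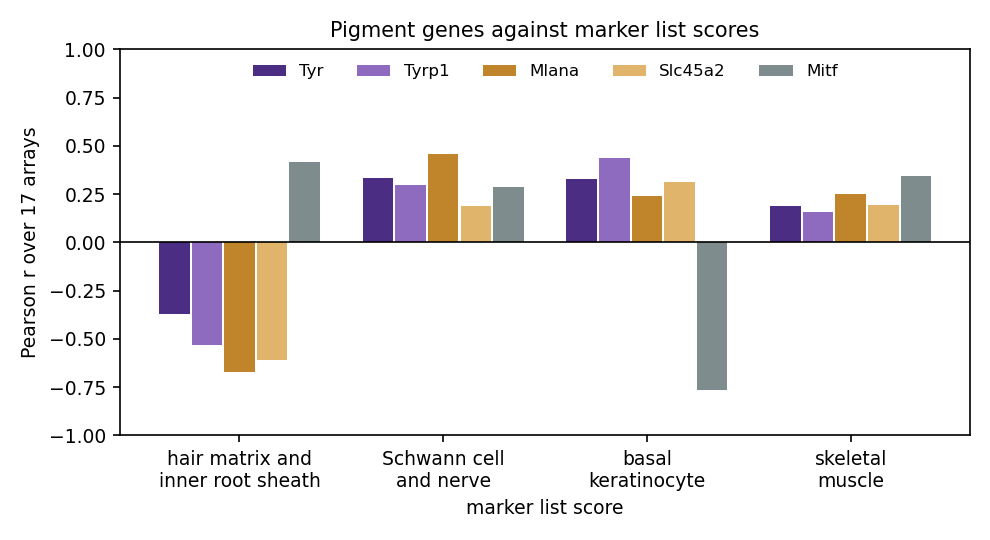
Pearson r over 17 arrays, on the vertical axis, between each of the 5 measured pigment genes (bars) and the scores of 4 tissue marker lists. The tallest bar is Mitf against basal keratinocyte markers (-0.76), and Tyr, Tyrp1, Mlana and Slc45a2 all lie below 0 for hair markers.

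The other pigmentation genes were examined for the exposure as 5 lists, and 0 of their 50 measured genes passed an adjusted p of 0.05 in limma, against 0% of all tested probes. Among 12 lineage and survival genes 11 were measured, and 5 were above and 6 below 0, against 41.0% of all named genes above 0. Pax3, an early lineage factor, differed by -0.030 and Tfap2a by 0.092, and Met, the receptor of hepatocyte growth factor, by -0.19. Bcl2, which keeps melanocyte stem cells alive, differed by -0.17. Of 12 ligands and hormones 8 were measured, 4 above and 4 below 0. Kitlg, the ligand of Kit, differed by 0.11, Nrg1, a neuregulin, by -0.17, and Atrn, attractin, by -0.034.

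Of 13 genes for melanosome channels and structure 9 were measured, with 4 above and 5 below 0. Atp7a, the pump that supplies copper to tyrosinase, was -0.13 in exposed minus sham skin, with an unadjusted p of 0.0423 and an adjusted p of 0.983 in limma, and the sham mean was exceeded by 1 of 9 exposed arrays. Of the 50 genes measured in the lists it was the 1 with an unadjusted p under 0.05, against 4.55% of all tested probes. Slc7a11, the cystine transporter that feeds pheomelanin synthesis, differed by 0.60, between -0.13 and 1.32. Gpnmb, a relative of Pmel that macrophages also express, differed by 0.16, and Cd63, a tetraspanin of melanosomes and other endosomal organelles, by 0.027.

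The sorting complexes that load melanosomes had 17 of 18 genes measured. Of these 14 were above and 3 below 0, against 41.0% of all named genes above 0. Their differences ran from -0.15 to 0.17 with a median of 0.012, against a median of -0.018 over all named genes. Hps3 lay at the upper end with 0.17 and Lyst at the lower end with -0.15, and Ap3d1 (0.00420) and Bloc1s1 (0.013) lay near 0. Of 6 transport genes 5 were measured, 2 above and 3 below 0. Among the partners that carry melanosomes along actin, Rab27a differed by -0.045, Mlph by -0.17 and Myo5a, the motor, by 0.27. Of the pathway genes named in these lists, Atp7a alone had a 95% interval that left out 0, from -0.25 to -0.0051.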

How the data were processed

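Skin RNA of 9 exposed and 8 sham arrays was hybridised to 1-colour Agilent arrays. The authors' scanner files give linear fluorescence intensity per spot, extracted with Agilent Feature Extraction 10.7.3.1 (GE1_107_Sep09) on a grid annotated on rn4, per the file headers. The processed signal that the authors deposited is background-subtracted within each array. Their deposited value table, an alternative here, holds log2 values of 14853 probes with row medians of 0 and column medians from -0.037 to 0.041. Against scanner values centred in that way, its columns had r of 0.981 to 0.999 and slopes of 0.96 to 1.01. The scaling between arrays behind it is not given in the sources used here.

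Control spots and outlier spots were left out, log2 of the processed signal minus that of the array's 75th percentile was averaged over the spots of a probe, and the 20709 probes well above background on at least 8 arrays were kept. On an array this asked for at least 50% of a probe's spots. Sequence names were matched to RefSeq symbols of GRCr8, for 17998 of 30367 probes. The 13193 kept probes with a symbol stood for 11166 genes, each read from its kept probe with the highest mean. Exposed and sham arrays entered limma 3.58.1 (R 4.3.3), whose p-values were adjusted by Benjamini-Hochberg over all 20709 probes at 0.05, and single genes were also tested by two-sided exact permutation. Correlations used numpy 2.4.6 and 100000 permutations. The fit was tested on simulated arrays. The number of arrays limits the precision.

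The genes and lists were chosen with earlier results of these data known. Named genes were the 9 pigment genes, in each other pigmentation list the 2 with the smallest p and the 2 with the highest level, and for each measured pigment gene the 3 closest by r. Tried as alternatives were median and quantile scaling, normexp with an offset of 50, other filters, slide as a block, single slides, array weights, the value table and leaving out each array. The planned mean signal for normexp was replaced by the median signal, which the files used here give.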

Additional observations from a re-analysis of the deposited data

Results flagged for a closer look

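The Mlana probe on sham replicate 5 read 0.31 (log2, relative to the array's 75th percentile), far above the other 7 sham arrays, of which the next was at -1.10. The gap was 0.631 of the group's whole range, above Dixon's 95% critical value of 0.526. It was the only outlying array among 38 groups checked, made of the 8 pigment gene probes and 11 list scores in each of 2 groups, and chance flags about 1 in 20. The same array had the highest Mlana, Slc45a2 and Tyrp1 values of the sham group, the highest mast cell score, 1.46, and the lowest hair score, -6.01. Without it Mlana was 0.45 higher in exposed skin instead of 0.23, and its adjusted p in limma was 0.801, with an unadjusted p of 0.0385.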

How the results depend on the processing

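Under all 28 alternatives 0 of the tested probes passed an adjusted p of 0.05 in limma, with 543 to 1354 at an unadjusted p under 0.05, and so did 0 pigment and 0 other pigmentation genes. The deposited value table gave no value for the main probes of Tyr, Tyrp1 and Slc45a2, and the filter asking for all 17 arrays left out Tyr. These genes were not tested under those settings. Where a direction turned, the cause was not tested. With normexp Tyr was -0.044. Within slide 1 the differences were -0.014 for Tyr, -0.19 for Tfap2a, -0.013 for Ap3d1 and 0.040 for Lyst. Within slide 2 they were -0.038 for Mitf, 0.12 for Pax3, -0.17 for Gpnmb, -0.00659 for Cd63, -0.39 for Slc7a11, -0.019 for Ap3d1, -0.086 for Bloc1s1, 0.052 for Rab27a and -0.058 for Myo5a. Within slide 4 they were -1.20 for Tyr, -0.17 for Tyrp1, -0.21 for Mlana, -0.14 for Slc45a2, 0.031 for Pax3, -0.12 for Kitlg, 0.011 for Atrn, 0.25 for Nrg1, -0.12 for Cd63 and -0.033 for Bloc1s1. Within slide 3, with 1 array a group, they were -0.65 for Tyrp1, -1.16 for Mlana, -0.49 for Slc45a2, 0.12 for Met, -0.042 for Kitlg, -0.65 for Gpnmb, -0.50 for Cd63, -0.087 for Hps3, -0.078 for Ap3d1, -0.16 for Bloc1s1 and 0.29 for Lyst. With slide as a block Ap3d1 was -0.000325 and Bloc1s1 -0.00566, with array weights Ap3d1 was -0.00852, and the third Mitf probe gave -0.095.

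Leaving out each array in turn gave differences of -0.19 to 0.40 for Tyr and -0.053 to 0.43 for Tyrp1, and 0.13 to 0.45 for Mlana, 0.20 to 0.32 for Slc45a2 and 0.058 to 0.15 for Mitf. In the same way Ap3d1 ran from -0.019 to 0.014, Bloc1s1 from -0.017 to 0.057, Cd63 from -0.030 to 0.094, Gpnmb from -0.00555 to 0.29, Pax3 from -0.074 to 0.049 and Rab27a from -0.083 to 0.022. The correlation of Tyr and Tyrp1 stayed between 0.92 and 0.95. The 4 correlated pairs became 2 to 5 when 1 array was left out, 1 within the exposed arrays, 1 within the sham arrays and 0 within slide 2, where fewer arrays remain. Mlana and Mitf correlated at -0.011 with quantile scaling, -0.30 after group and slide were removed, -0.22 within exposed arrays and -0.61 within slide 2, and at -0.059 to 0.17 with 1 array left out. The 3 correlations with marker scores became 1 to 4 with 1 array left out, and 6 after group and slide were removed. Tyrp1, Mlana and Slc45a2 then had r of -0.022, -0.22 and -0.040 with the muscle score, and Mlana had -0.066 with the basal keratinocyte score under quantile scaling. No paired analysis was possible because the labels give the arrays no replicate numbers or animals that the groups share. Tyr had the weakest signal over background, with 7 of 17 arrays below the criterion, and its small differences could not be resolved.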
